A study of Ascaridia galli and Trichostrongylus colubriformis with 4 samples.

Results

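Among the unigenes of 2 parasitic nematodes, 312 of 194608 carried a product name of a named retroelement, an integrase core protein or a transposase. A unigene is an assembled transcript, and its product name is that of its best protein hit in other nematodes. Members were taken by name: those containing X-element, jockey, retrotransposable element, retrovirus-related Pol, transposase or integrase core, LINE-1 names left out. They were 243 of 150798 unigenes in Ascaridia galli, a large intestinal roundworm of chickens, and 69 of 43810 in Trichostrongylus colubriformis, a small worm of the sheep intestine. The set was chosen by product name with the ratios of condition B to condition A in these tables already known, so its ratios are given as a description. Whole worms, 6 to a dish, had been kept either in a water extract of Pottia lanceolata, a moss, or in double distilled water. The extract was assayed at 10, 20 and 50 mg/ml, and the concentration behind the RNA is not given in the sources used here. Each worm had 1 poly(A) RNA library for each of 2 conditions. The deposited tables call these conditions A and B and do not say which is the extract, so all ratios are condition B over condition A, the order may differ between the worms, and which way the extract moved a transcript cannot be read from them. With 1 library per condition there was no replicate and no test. Differences are described by their size and by 95% counting intervals, which cover counting error alone and not variation between worms. Values in brackets are log2 ratios unless named otherwise, and abundance means the mean normalized count of both conditions, not a level per length.

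Retroelements move by copying their RNA into DNA. X-element and jockey are families first described in Drosophila, and R2 is an element that inserts into ribosomal RNA genes of insects and other animals. All belong to the LINE type, which has no long terminal repeats and encodes a reverse transcriptase. The tobacco element TNT 1-94 has long terminal repeats, and its Pol polyprotein combines a protease, a reverse transcriptase and an integrase. The name retrovirus-related Pol polyprotein is also given to R2 products, which are counted here with the LINE type. Pol polyproteins below are the other members with that name, also where no element is named. The integrase core is the catalytic part that joins the DNA copy to the genome and is shared with retroviruses. Transposases move DNA transposons without an RNA step: mariner and Tc5 are animal families, whereas names beginning with IS were given to bacterial insertion sequences. In animal germ cells, Argonaute proteins with small RNAs, and histone-modifying enzymes, are known to hold such elements silent. The members are thus a mixed set of retroelements and transposases, and the name alone does not show that a unigene comes from a complete or active element.

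Read totals recovered from the normalized counts were 69118994 in condition B and 87659967 in condition A of A. galli, and 91812201 in condition B and 91182265 in condition A of T. colubriformis. Scaling to equal totals in place of the deposited scaling would raise log2 ratios by 0.38 in A. galli and by 1.99 in T. colubriformis. Ratios of single unigenes below had 1 added to each normalized count, so those with few counts moved by less. Ratios also ran with the number in the unigene's name. Of all A. galli unigenes that reached 20 normalized counts in either condition, 76.3% of those numbered up to 100753 were lower in condition B, and 69.4% of those with higher numbers were higher in it. In T. colubriformis the shares were 99.3% lower up to number 34727 and 85.0% higher above it. Both limits were placed, with the values in view, where the sides differed most. What the number records is not given in the sources used here, and its part in the results was not tested, so medians are also given for low-numbered and high-numbered unigenes apart. The members divided in the same way. In A. galli, 106 of 138 low-numbered members were lower in condition B and 92 of 105 high-numbered members were higher. In T. colubriformis all 32 low-numbered members were lower in condition B, and 30 of 37 high-numbered members were higher. With equal totals these counts were 90 and 95 in A. galli and 29 and 35 in T. colubriformis.

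**Figure D1:**
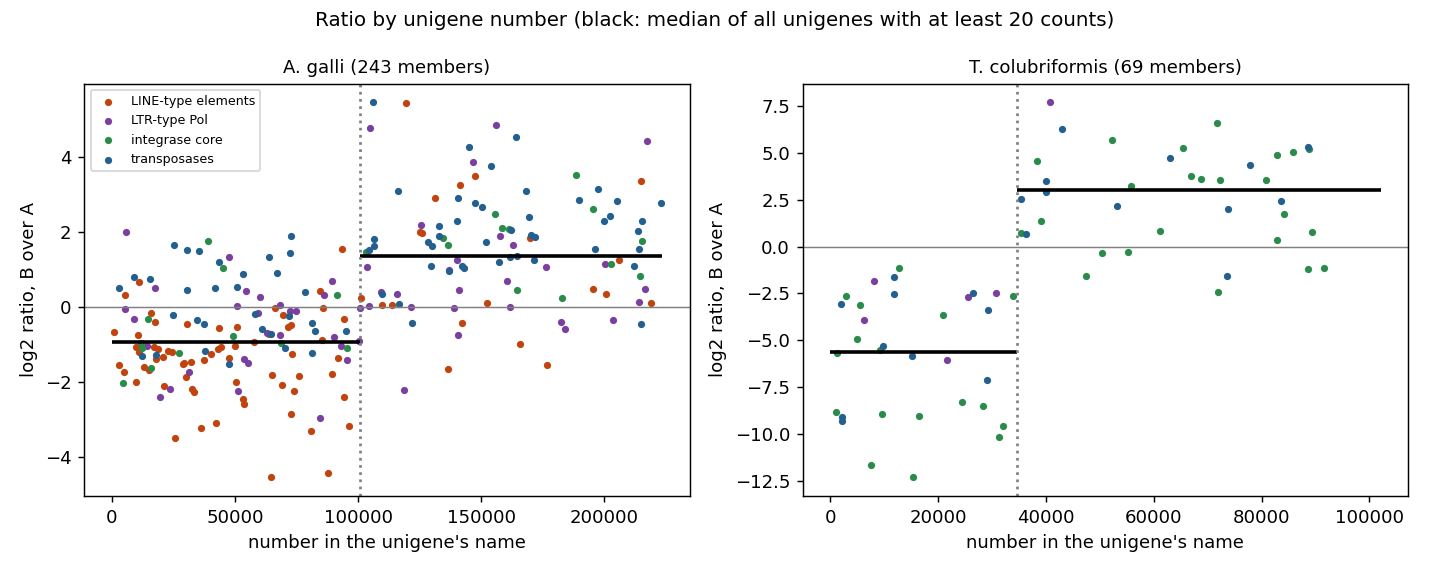
Log2 ratio of normalized counts, condition B over condition A, of each member (points, coloured by class) against the number in its unigene name, for A. galli (left) and T. colubriformis (right). Dotted lines mark the limits at 100753 and 34727, and black lines the medians of all unigenes with at least 20 counts on each side, −0.94 and 1.37 in A. galli and −5.65 and 2.99 in T. colubriformis.

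In A. galli, LINE-type unigenes were mostly lower in condition B and transposase unigenes mostly higher. Over all members 124 were higher and 119 lower, or 143 and 100 with equal totals. Their summed counts gave −0.59, or −0.21 with equal totals. Of the 211 members that reached 20 normalized counts in either condition, 33 were higher in condition B by 4-fold or more, against a background of 22.7% of all unigenes, and 23 were at least 4-fold lower, against 9.76%. With equal totals these were 50 and 12 of 209, against 29% and 5.74%. Counting members that reached 100 normalized counts gave 12 and 13 of 80, against 9.65% and 11.3%. Among low numbers 0 members were past 4-fold higher and 22 past 4-fold lower of 119, against 3.64% and 19.7% of all low-numbered unigenes. Among high numbers they were 33 and 1 of 92, against 39% and 1.31%. The median log2 ratio, taken here and throughout where the mean of both conditions was 10 or more, was 0.03 for members, with an interquartile range of −1.10 to 1.497, and that of all unigenes was −0.03. With equal totals both medians moved, to 0.41 for members and 0.33 for all unigenes. The medians of members were −0.92 among low numbers and 1.53 among high numbers, where those of all unigenes were −0.81 and 1.29. The 85 LINE-type members had a median of −1.14, the 56 Pol polyproteins 0.01, the 25 integrase core proteins 0.63 and the 77 transposases 1.35. By unigene number (low, then high) these were −1.37 and 0.41 for LINE-type members, −0.25 and 0.47 for Pol polyproteins, −0.96 and 1.65 for integrase core proteins and 0.39 and 1.88 for transposases. All 18 of the LINE-type members past 4-fold lower were low-numbered and all 6 of those past 4-fold higher were high-numbered. Of the 85, 65 were low-numbered, with 61 of these lower in condition B. Of the 20 high-numbered ones, 16 were higher in it.

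**Figure D2:**
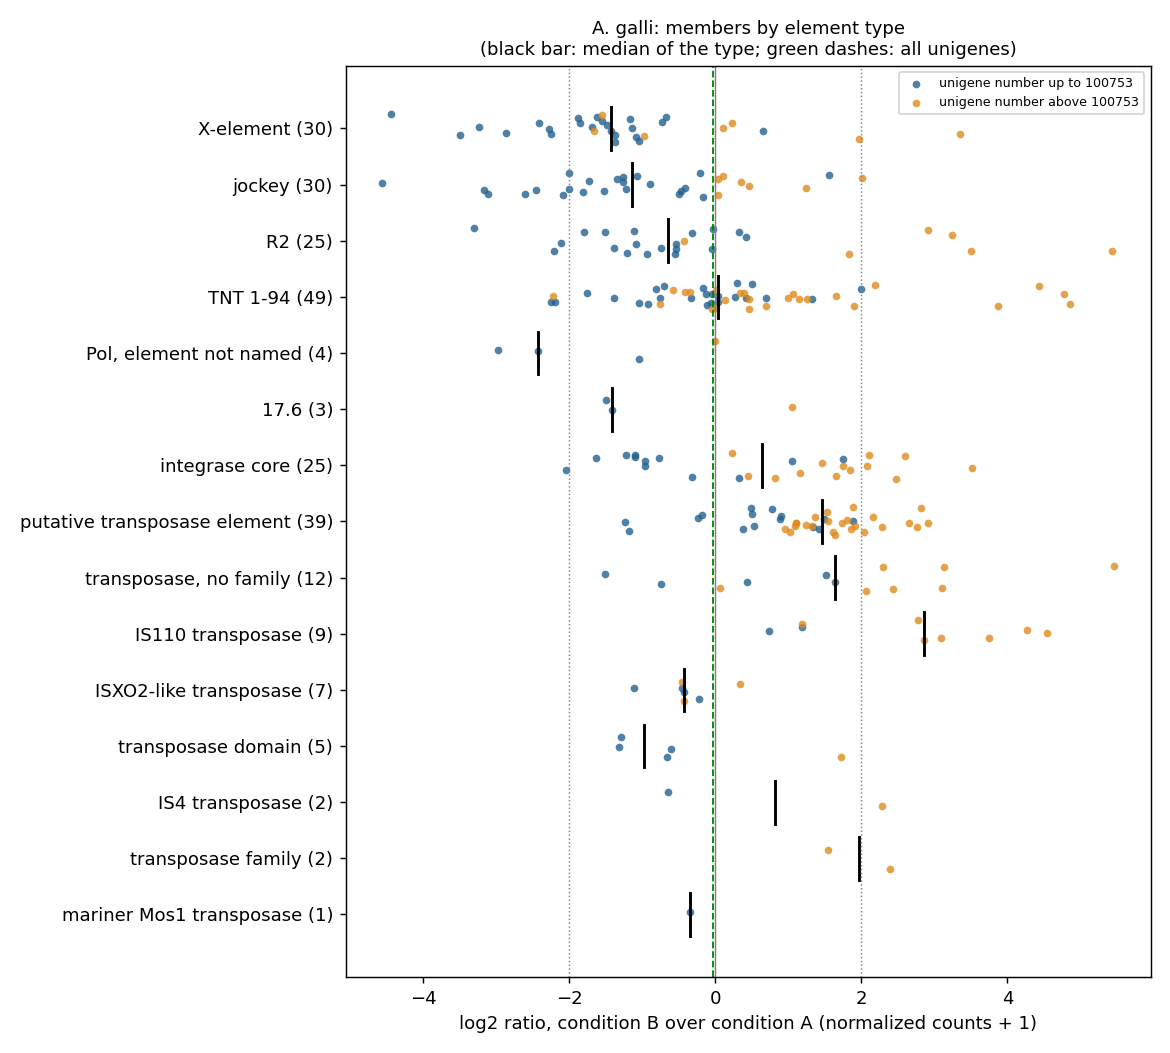
Log2 ratio of each A. galli member by element type, with the number of members in brackets, coloured by unigene number. Black bars are medians over members whose mean count was 10 or more, green dashes the median of all unigenes (−0.03) and dotted lines 4-fold. X-element and jockey points lie mostly left of 0, the putative transposase elements and the IS110 and unassigned transposases mostly right of it.

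X-element names were found on 30 A. galli unigenes, all with hits in Toxocara canis, the roundworm of dogs, and 25 of the 30 were lower in condition B, with equal totals as well. Unigene 9670 was the most abundant of all members, with 23947 normalized counts in condition B and 50841 in condition A, a log2 ratio of −1.09 with an interval of −1.12 to −1.05. It held 45.4% of all member counts in condition B and 63.9% of those in condition A. Its alignment covered residues 88 to 260 of a 521-residue X-element protein at 57.2% identity. Unigene 36399, aligned to residues 335 to 480 of a protein of the same length, had 142 normalized counts in condition B and 1350 in condition A, −3.24 on the log2 scale. Unigenes 72634 and 87625 were among the members with the smallest ratios. Unigene 72634 had 26 normalized counts in condition B against 193 in condition A (−2.86), and unigene 87625 had 4 in condition B against 106 in condition A (−4.44, interval −7.84 to −2.83). The last interval is wide because so few reads fell in condition B.

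Of 26 X-element unigenes with enough counts for the size rule, 7 were past 4-fold lower in condition B, against 9.76% of all unigenes, and 1 was past 4-fold higher, against 22.7%. The 7 were among 20 low-numbered ones, where the share of all unigenes was 19.7%. The 1 higher was unigene 214913, singled out after its values were seen, with 412.2 normalized counts in condition B and 39.5 in condition A (3.35). The median was −1.43, and −1.05 with equal totals. It was −1.52 for the 22 low-numbered X-element unigenes with a mean of at least 10 and 0.10 for the 7 high-numbered ones. All X-element counts summed to 25917 in condition B and 56713 in condition A, a log2 ratio of −1.13, and to −1.58 without unigene 9670. The summed ratio thus kept its sign without the most abundant unigene.

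**Figure D3:**
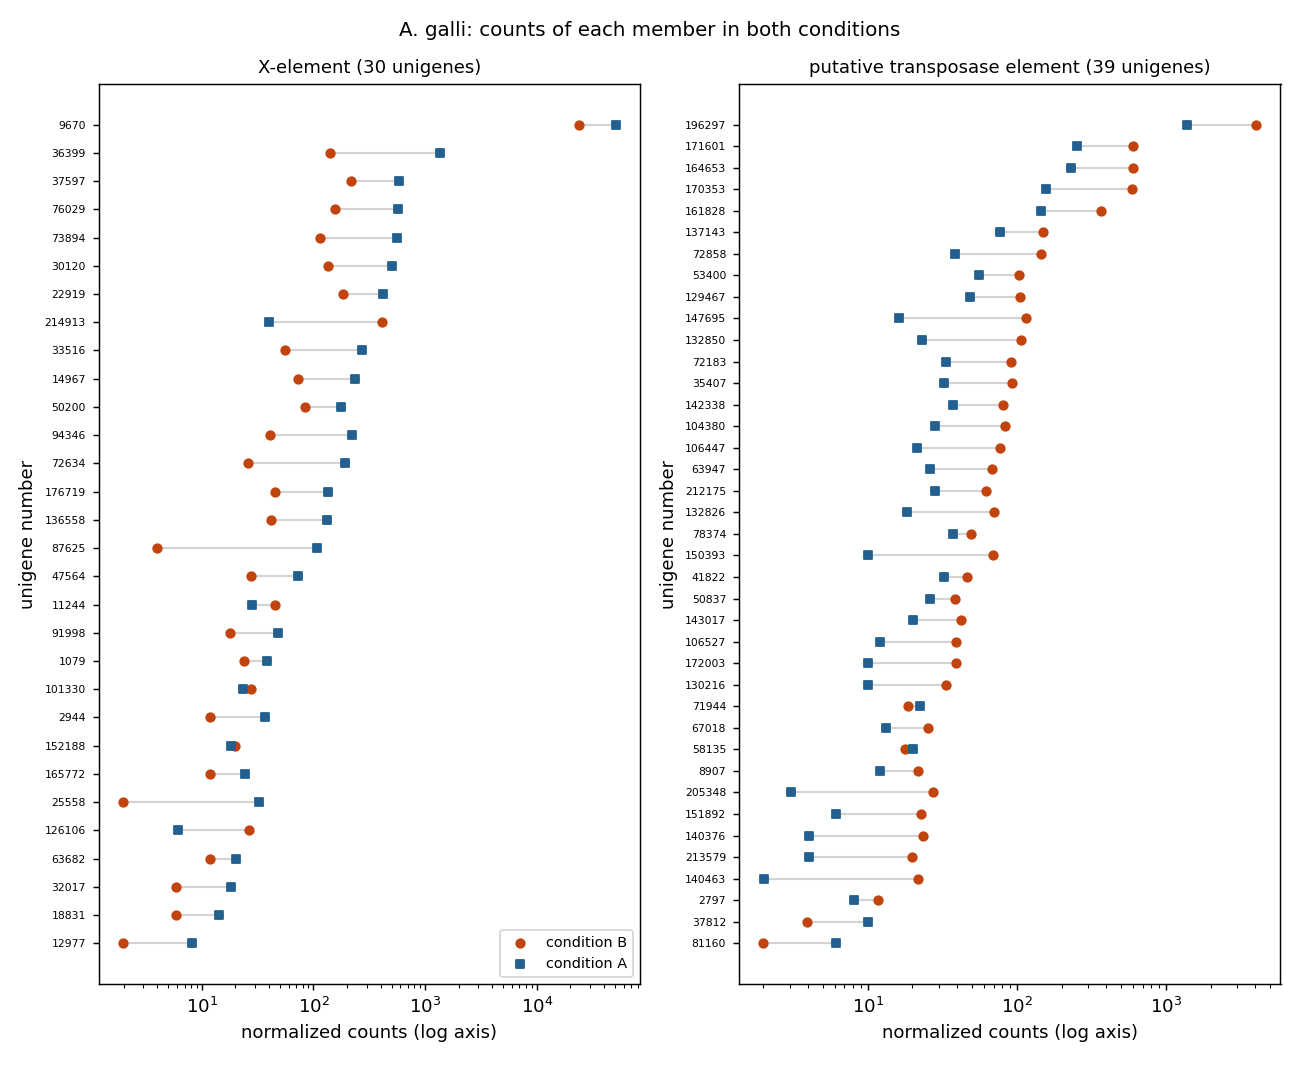
Normalized counts in condition B (circles) and condition A (squares) of every A. galli unigene named X-element (left, 30) or putative transposase element (right, 39), on log axes, sorted by mean count. In 25 of 30 X-element unigenes the circle lies left of the square, and in 35 of 39 putative transposase elements it lies right of it.

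Jockey names were also found on 30 unigenes, all with T. canis hits, and 22 were lower in condition B, or 20 with equal totals. The 2 most abundant were unigene 29059, with 238 normalized counts in condition B and 688 in condition A (−1.53, interval −1.84 to −1.23), and unigene 17040, with 233 in condition B and 491 in condition A (−1.07, interval −1.41 to −0.75). Unigene 64602 had 4 normalized counts in condition B and 116 in condition A, the smallest ratio of any A. galli member (−4.56, interval −7.95 to −2.95). Of 27 with enough counts, 8 were past 4-fold lower in condition B, against 9.76% of all unigenes, and 1 past 4-fold higher, against 22.7%. The 8 were among 23 low-numbered ones, against 19.7%. The median was −1.15, and −0.77 with equal totals. The low-numbered unigenes had a median of −1.35, and all 7 high-numbered ones were higher in condition B, with a median of 0.35. Of the 30, 17 had hits in 1 protein of 772 residues, over residues 172 to 733 of it. Their counts summed to 1127 in condition B and 3028 in condition A (−1.43), with 4 of the 17 higher in condition B, or 6 with equal totals.

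The R2 name was found on 25 unigenes, 21 with hits in T. canis and 4 in Ascaris suum, and here the sum and the median had opposite signs. The counts summed to 2567 in condition B and 1173 in condition A, a log2 ratio of 1.13. Unigene 119593 held most of the condition B counts, with 1889 normalized counts in condition B and 42.6 in condition A (5.44, interval 4.85 to 6.17). Without it the summed ratio was −0.74. The median of the type was −0.65, and −0.28 with equal totals, and it was −1.10 among low and 3.07 among high numbers. Unigene 10862, the other abundant one, had 161 normalized counts in condition B and 271 in condition A (−0.75). Both aligned to the same 178-residue protein, over residues 22 to 142 for unigene 119593 and 1 to 135 for unigene 10862. Unigene 81050, with hits within the same stretch, had 18 in condition B and 185 in condition A (−3.31), so unigenes that matched 1 R2 protein differed in direction. Unigene 119593 is high-numbered, and unigenes 10862 and 81050 are low-numbered. On these sides 69.4% of all unigenes were higher and 76.3% lower in condition B. Of 19 with enough counts for the size rule, 4 were past 4-fold higher and 3 past 4-fold lower, against 22.7% and 9.76% of all unigenes. The 4 were among 6 high-numbered ones, where the share of all unigenes was 39%. The 3 were among 13 low-numbered ones, where it was 19.7%.

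All 85 members with hits in ascaridid worms, the relatives of A. galli, were LINE-type elements. Unigenes with T. canis hits in general were also lower in condition B: the median was −0.59 for those that were no members, −0.97 among low numbers and −0.16 among high numbers. The 81 members with T. canis hits had medians of −1.17 in all, −1.43 among low numbers and 0.41 among high numbers. In A. galli 25 unigenes fell into 12 groups with the same alignment to the same protein. In all 12 the ratios had 1 sign on the deposited scaling, and in 11 of 12 with equal totals, with differences of 0.02 to 3.06 on the log2 scale. Of these groups 11 lay wholly on 1 side of the number limit, where most unigenes had 1 direction. Jockey unigene 29059 had such a partner, unigene 65149, with 152.9 normalized counts in condition B and 541.5 in condition A (−1.82).

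TNT 1-94 polyproteins were the most numerous type in A. galli, with 49 unigenes, and as a group they differed little between conditions. The median log2 ratio was 0.04, and 0.41 with equal totals, and the counts summed to 6688 in condition B and 5989 in condition A (0.16). Unigene 51061, the most abundant, had 2658 normalized counts in condition B and 2601 in condition A (0.03, interval −0.08 to 0.14). Unigene 8995 had 342 in condition B and 432 in condition A (−0.34), a difference that was 0.05 in the other direction with equal totals. Most hits, 34 of 49, were in Trichinella patagoniensis. The 2 unigenes 51061 and 8995 lay next to each other on 1 protein of 618 residues, over residues 1 to 396 at 90.5% identity and 397 to 614 at 83.9% identity.

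The rarer TNT 1-94 unigenes lay on both sides. Unigene 146553 had 191 normalized counts in condition B and 12.2 in condition A (3.87, interval 2.80 to 5.46), and aligned to residues 3 to 264 of the 618-residue protein at 50.4% identity. Unigene 104961 had 138 in condition B and 4.06 in condition A (4.78, interval 3.18 to 8.16). Of 45 with enough counts, 5 were past 4-fold higher in condition B, all high-numbered, and 2 past 4-fold lower, against 22.7% and 9.76% of all unigenes. The 618-residue protein was covered from end to end by 22 A. galli unigenes at identities of 44.7% and above. Their counts summed to 4903 in condition B and 4628 in condition A (0.08), with 12 of the 22 higher in condition B, or 15 with equal totals. The median was −0.12 among low-numbered and 0.47 among high-numbered TNT 1-94 unigenes.

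**Figure D4:**
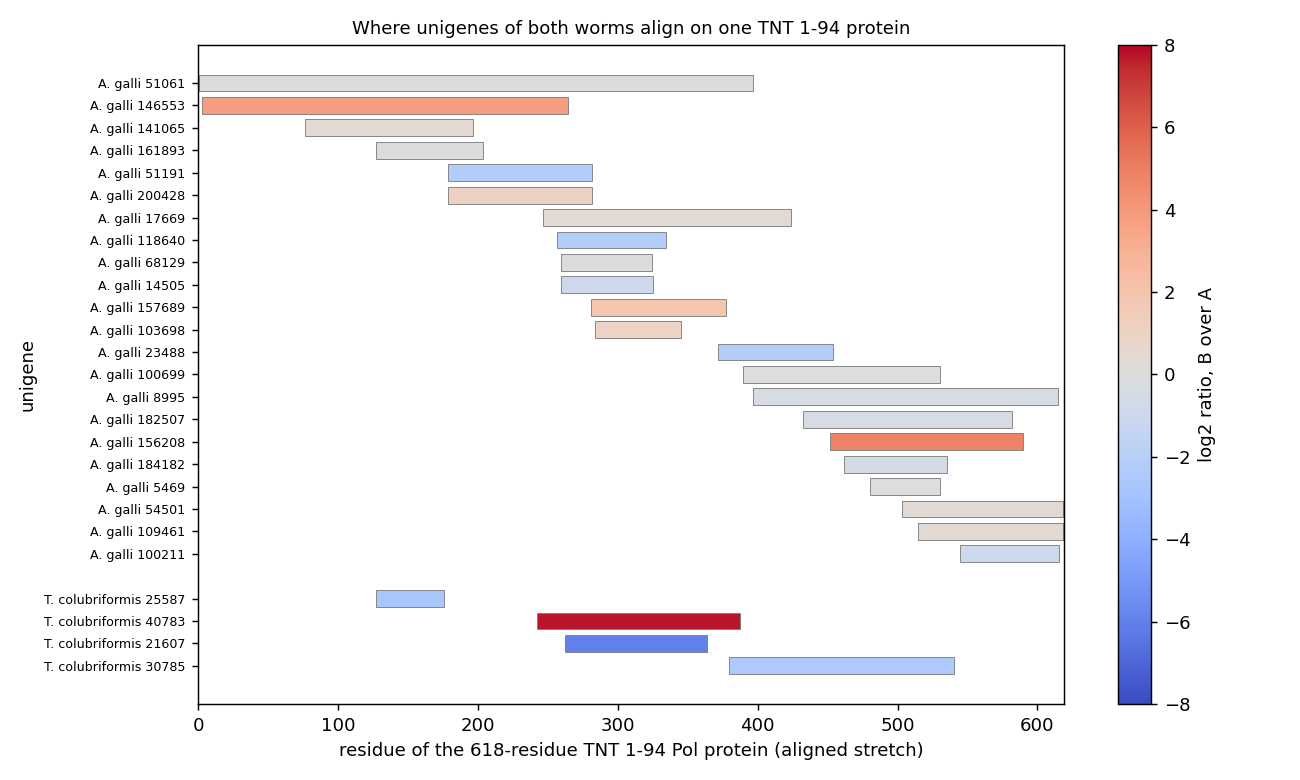
Stretches of a 618-residue TNT 1-94 Pol protein of T. patagoniensis matched by 22 A. galli and 4 T. colubriformis unigenes, in residues, coloured by log2 ratio of condition B over condition A. The 2 long A. galli stretches, 51061 and 8995, are near 0. The T. colubriformis stretches 40783 (high-numbered) and 21607 (low-numbered), which overlap, are 7.69 and −6.06.

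Other Pol polyproteins of A. galli were few. Of 4 whose element is not named, unigene 121645 had 41.4 normalized counts in condition B and 41.6 in condition A (−0.01, and 0.37 with equal totals), and unigene 19591 had 7.89 in condition B and 46.6 in condition A (−2.42). Of 3 named after a Drosophila element with long terminal repeats, unigene 176131 had 75 normalized counts in condition B and 36 in condition A (1.06), and unigene 55313 had 14 in condition B and 41 in condition A (−1.49). Both of these aligned to the same 817-residue protein, over residues 521 to 742 and 623 to 691. The overlapping stretches therefore differed in direction, with intervals of 0.23 to 1.99 and −3.04 to −0.26. Unigene 176131 is high-numbered and unigene 55313 low-numbered, sides where 69.4% of all unigenes were higher and 76.3% lower in condition B.

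Integrase core proteins were found on 25 A. galli unigenes, with hits spread over 20 proteins. The median log2 ratio was 0.63, and the summed counts, 1505 in condition B and 1589 in condition A, gave −0.08, or 0.30 with equal totals. The most abundant pair were low-numbered and lower in condition B. Unigene 95461 had 220 normalized counts in condition B and 472 in condition A (−1.10), and unigene 68572 had 183 in condition B and 357 in condition A (−0.96), each with a hit in Brugia malayi, a filarial worm. By unigene number the medians were −0.96 and 1.65, and all 13 high-numbered ones were higher in condition B. Of 19 with enough counts, 3 were past 4-fold higher and 1 past 4-fold lower in condition B, against 22.7% and 9.76% of all unigenes.

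The putative transposase elements of A. galli were 39 unigenes with hits in 1 protein of 214 residues from Trichinella, and 35 of the 39 were higher in condition B, or 37 with equal totals. Unigene 196297 had 4024 normalized counts in condition B and 1383 in condition A (1.54, interval 1.41 to 1.67). Unigene 171601 had 601 in condition B and 254 in condition A (1.24, interval 0.94 to 1.56). They aligned to the first 37 and to residues 3 to 41 of the protein, at 81.1% and 59.0% identity. All 39 together covered each of its 214 residues. The counts summed to 8120 in condition B and 2930 in condition A, a log2 ratio of 1.47 with an interval of 1.38 to 1.56, and to 1.41 without unigene 196297. The summed difference was therefore not that of 1 unigene. The median was 1.46, and 1.83 with equal totals. It was above 0 on both sides of the number limit, 0.83 among low and 1.69 among high numbers. Of 35 with enough counts, 6 were past 4-fold higher in condition B, a smaller share than the 22.7% of all unigenes, and 0 past 4-fold lower. The 6 were among 23 high-numbered ones, where the share of all unigenes was 39%. Unigenes with Trichinella hits that were no members had a median of 1.29, and 0.56 and 1.68 on the 2 sides.

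Transposases named after the bacterial element IS110 were 9 A. galli unigenes, all with hits in 1 protein of 398 residues from Trichuris trichiura, the human whipworm, and all 9 were higher in condition B. Unigene 164288 had 164 normalized counts in condition B and 6.08 in condition A (4.54, interval 3.15 to 7.06), and unigene 189720 had 124 in condition B and 16.2 in condition A (2.86, interval 1.87 to 4.21). The median was 2.86, and 0.96 and 3.09 by unigene number. Of 8 with enough counts, 6 were past 4-fold higher, all of them among the high numbers, where the share of all unigenes was 39%. Of the 12 transposases with no family in the name, 10 were higher in condition B. With enough counts, 5 of 10 were past 4-fold higher, against 22.7% of all unigenes, and all 5 were high-numbered. Unigene 116216 had 217 normalized counts in condition B and 24.3 in condition A (3.10). Unigene 106277 had 132 in condition B and 2.03 in condition A, the largest ratio of any A. galli member (5.46, interval 3.50 to 11.35), and unigene 25137 had 135 in condition B and 42.6 in condition A (1.64). All 3 had hits in 1 T. trichiura protein of 414 residues, as did 10 of the 12, whose counts summed to 875 in condition B and 201 in condition A (2.12). Unigenes with Trichuris hits that were no members had a median of 2.11, and 0.89 and 2.67 by unigene number, and the 22 members with such hits had 2.40, 0.96 and 2.86. Past 4-fold higher were 12 of 20 such members with enough counts, and 2027 of 3423 of those that were no members. Among high numbers these were 12 of 14 and 1802 of 2336.

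The other transposases of A. galli had no direction in common. The ISXO2-like transposases, 7 unigenes with hits in 1 protein of Strongyloides ratti, a rat threadworm, had a median of −0.43, and −0.05 with equal totals. Unigene 37464 had 1397 normalized counts in condition B and 1914 in condition A (−0.45), and unigene 121859 had 839 in condition B and 1134 in condition A (−0.43). These 2 had the same alignment, and the same ratio within counting error, although their numbers lie on opposite sides of the limit. The 5 transposase domain proteins, with hits in Haemonchus contortus, had a median of −0.97. The most abundant was unigene 61200, with 90 normalized counts in condition B and 137 in condition A (−0.60), followed by unigene 18012 with 45 in condition B and 113 in condition A (−1.29). Of 2 IS4 transposases, unigene 95295 had 26 in condition B and 41 in condition A (−0.65) and unigene 215404 had 34 in condition B and 6 in condition A (2.29). Both unigenes of the transposase family name were higher in condition B, unigene 214240 with 85 normalized counts in condition B against 28 in condition A (1.55) and unigene 169461 with 26 in condition B against 4 in condition A (2.40). The only mariner transposase, unigene 34522, had 32 in condition B and 41 in condition A (−0.35, and 0.02 with equal totals).

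Related names in A. galli gave a measure of what other mobile elements and the silencing machinery did. Among 386 unigenes named LINE-1, 73 of the 362 with enough counts were past 4-fold higher in condition B and 0 were past 4-fold lower, against 22.7% and 9.76% of all unigenes. Their median was 1.48, and 1.11 and 1.71 by unigene number, above that of the LINE-type members. The lists differ in their hits: 4 of the 386 LINE-1 unigenes had hits in relatives of A. galli, against all 85 LINE-type members, and over all unigenes the median was −0.58 for hits in relatives and 0.98 for hits in other nematodes. The part of the hit species was not tested. Unigene 117222, the most abundant, had 124450 normalized counts in condition B and 43470 in condition A (1.52). Unigenes with other reverse transcriptase names, 133 in all, had a median of −0.79, and −1.51 and 0.22 by unigene number. Of 106 with enough counts, 7 were past 4-fold higher and 22 past 4-fold lower, against 22.7% and 9.76% of all unigenes. With equal totals these were 9 and 18 of 109, against 29% and 5.74%. Of the 22, 21 were among 66 low-numbered ones, where the share of all unigenes was 19.7%. Among the 133, unigene 129798 had 6071 normalized counts in condition B and 708 in condition A (3.10), while unigene 69049 had 339 in condition B and 6033 in condition A (−4.15). Other mobile element names, 145 unigenes, had a median of −0.45, and −0.92 and 0.90 by unigene number, with 10 past 4-fold higher and 16 past 4-fold lower of 118, against 22.7% and 9.76% of all unigenes. With equal totals the median was −0.08 and the counts turned to 18 and 10 of 114, against 29% and 5.74%. That list was made by name and also holds 15 phage integrases and 2 retrovirus receptors, names that need not stand for mobile elements of the worm. Unigene 45341, named putative tick transposon, had 322 in condition B and 1328 in condition A (−2.04).

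The small RNA silencing list of A. galli held 35 unigenes for Argonaute, Piwi and Dicer proteins and RNA-dependent RNA polymerases. Of 34 with enough counts, 0 were past 4-fold higher and 1 past 4-fold lower, against 22.7% and 9.76% of all unigenes. The median was −0.55, and −1.09 and −0.34 by unigene number. Argonaute wago-1, which binds secondary small RNAs in Caenorhabditis elegans, was most abundant as unigene 135699, with 25541 normalized counts in condition B and 36116 in condition A (−0.50). CSR-1, an Argonaute of the C. elegans germ line, had 7630 in condition B and 11955 in condition A as unigene 31530 (−0.65). The chromatin silencing list held 101 histone methyltransferases, histone deacetylases and chromobox proteins. It had 2 past 4-fold higher and 1 past 4-fold lower of 99, against the same 22.7% and 9.76%. Its median was −0.58, and −0.75 and −0.04 by unigene number. Histone deacetylase unigene 38647 had 1438 normalized counts in condition B and 7248 in condition A (−2.33). With equal totals the medians were −0.17 for small RNA silencing and −0.20 for chromatin silencing, against 0.13 for all annotated unigenes. Hits in relatives of A. galli made up 33 of the 35 and 89 of the 101. All unigenes with such hits had a median of −0.58, or −0.20 with equal totals, close to both lists. Of these, 781 were past 4-fold higher and 2038 past 4-fold lower of 26453 with enough counts. No such list was compared with the members by a test.

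In T. colubriformis none of the 69 members was named X-element, jockey or R2, and 41 were integrase core proteins. The ratios were spread more widely than in A. galli, among members and among all unigenes. Of the 60 members that reached 20 normalized counts in either condition, 22 were higher in condition B by 4-fold or more, against a background of 39.7% of all unigenes, and 27 were at least 4-fold lower, against 41.6%. With equal totals these were 28 and 19 of 55, against 55.7% and 28.1%. Counting members that reached 100 normalized counts gave 19 and 20 of 45, against 44.3% and 45%. Among low numbers 0 members were past 4-fold higher and 26 past 4-fold lower of 29, against 0.459% and 95.2% of all low-numbered unigenes. Among high numbers they were 22 and 1 of 31, against 66.1% and 5.66%. The median log2 ratio was −1.16, with an interquartile range of −5.45 to 3.53, and 0.75 with equal totals. That of all unigenes was 0.33, and 2.25 with equal totals. The median of members was −5.66 among low numbers and 3.52 among high numbers, where those of all unigenes were −5.60 and 2.83. The member counts summed to 52240 in condition B and 296498 in condition A (−2.50), against −1.99 for all unigenes.

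**Figure D5:**
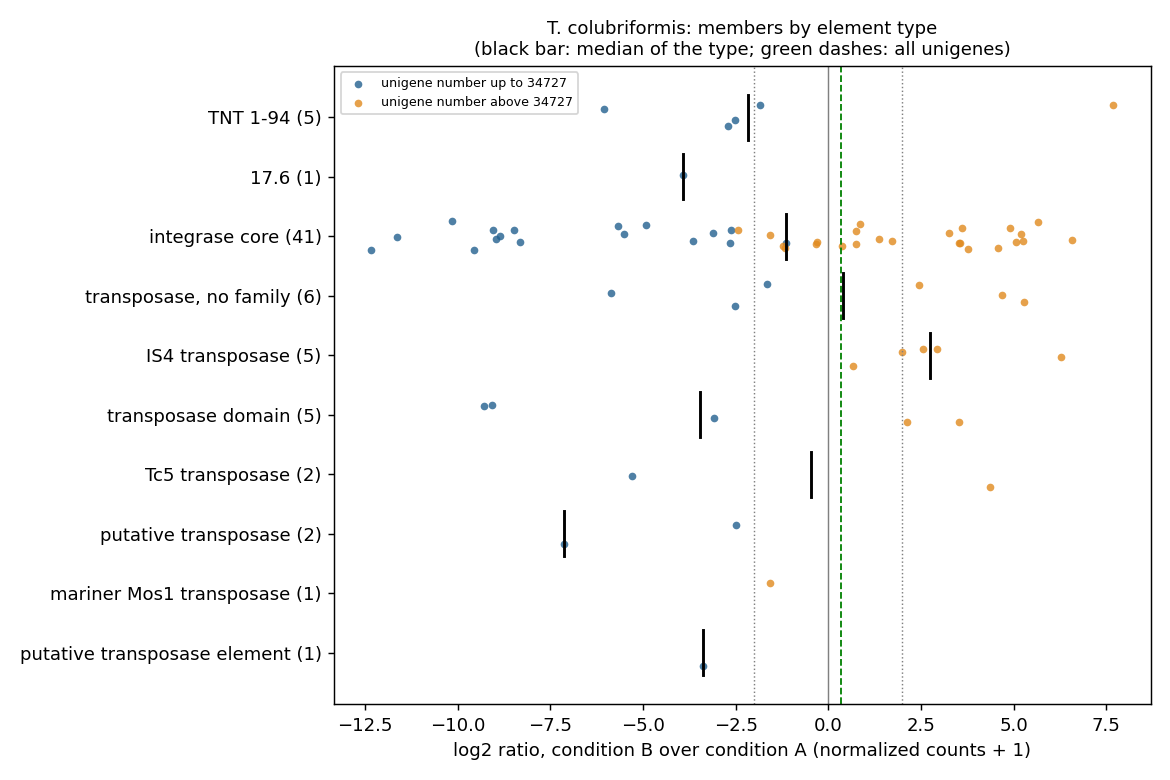
Log2 ratio of each T. colubriformis member by element type, with the number of members in brackets, coloured by unigene number. Black bars are medians over members whose mean count was 10 or more, green dashes the median of all unigenes (0.33) and dotted lines 4-fold. All 32 low-numbered members lie left of 0 (29 with equal totals), and all 5 IS4 transposases, which are high-numbered, lie right of it. On these sides 99.3% of all unigenes were lower and 85.0% higher in condition B.

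Integrase core unigenes of T. colubriformis lay on both sides, 12 past 4-fold higher in condition B and 17 past 4-fold lower of 37, shares near the 39.7% and 41.6% of all unigenes. With equal totals the counts were 17 and 12 of 34, against 55.7% and 28.1%. Unigene 16535, the most abundant, had 152 normalized counts in condition B and 81506 in condition A (−9.06, interval −9.31 to −8.84). Unigene 72010 had 4766 in condition B and 25876 in condition A (−2.44), a difference of −0.45 with equal totals. The median was −1.15, and 0.83 with equal totals, so its direction depended on the scaling. It was −8.32 among low-numbered and 3.39 among high-numbered unigenes. Without unigene 16535 the summed ratio was −2.08, against −2.69 with it.

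Among the unigenes named for the smallest ratios, unigene 15311 had 4 normalized counts in condition B and 25728 in condition A (−12.33, interval −14.53 to −11.29). Unigene 31279 had 25 in condition B and 29518 in condition A (−10.15), unigene 7641 had 1 in condition B and 6412 in condition A (−11.65, interval −17.95 to −10.17) and unigene 32041 had 7 in condition B and 6062 in condition A (−9.57). These 4, with unigene 16535, were low-numbered. On the other side, unigene 52312 had 13019 normalized counts in condition B and 256 in condition A (5.66, interval 5.31 to 6.05), unigene 82800 had 6402 in condition B and 212 in condition A (4.91) and unigene 71819 had 1431 in condition B and 14 in condition A (6.58), all high-numbered. Unigenes that matched 1 protein could lie on both sides. A 2016-residue protein of the hookworm Ancylostoma duodenale was hit by 6 unigenes, among them unigene 16535 over residues 1884 to 1926 and unigene 52312 over residues 1590 to 1874. Unigene 9622, low-numbered and singled out after its values were seen, overlapped unigene 52312 over residues 1830 to 1869. It had 32.5 normalized counts in condition B and 16730 in condition A (−8.96).

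All 5 IS4 transposases of T. colubriformis were high-numbered and higher in condition B, as were 85.0% of all high-numbered unigenes. Of 4 IS4 transposases with enough counts, 3 were past 4-fold higher, against 66.1% of all high-numbered unigenes. Unigene 43051 had 1016 normalized counts in condition B and 12 in condition A (6.29, interval 4.85 to 8.68), and unigene 73843 had 298 in condition B and 74 in condition A (1.99, interval 1.33 to 2.77). Of 2 Tc5 transposases, unigene 77902 had 3851 in condition B and 186 in condition A (4.36), and unigene 9787 had 6 in condition B and 272 in condition A (−5.29). Transposases with no family in the name were 3 higher and 3 lower in condition B, or 4 and 2 with equal totals. The most abundant of these, unigene 11916, had 3204 normalized counts in condition B and 18412 in condition A (−2.52, and −0.53 with equal totals), and unigene 63102 had 1896 in condition B and 72 in condition A (4.70). Transposase domain unigenes 2241 and 2242 had 15 and 11 normalized counts in condition B, against 10068 and 6490 in condition A (−9.30 and −9.08). Putative transposase unigene 29114 had 46 in condition B and 6542 in condition A (−7.14), and its lesser companion, unigene 26482, had 2 in condition B and 16 in condition A (−2.50, interval −6.47 to −0.20). The putative transposase element, a type with 39 unigenes in A. galli, was 1 unigene here, number 29202, with 2 normalized counts in condition B and 30 in condition A (−3.37, interval −7.19 to −1.55). The only mariner unigene, 73679, had 2 in condition B and 8 in condition A (−1.58, interval −5.79 to 1.79), too few for the size rule.

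TNT 1-94 names were found on 5 T. colubriformis unigenes, 4 of them with hits in the same 618-residue protein as in A. galli. Unigene 30785 had 2666 normalized counts in condition B and 15122 in condition A (−2.50, and −0.51 with equal totals), at 91.9% identity over residues 380 to 540. Unigene 40783 had 1034 in condition B and 4 in condition A (7.69, interval 5.53 to 13.32), the largest ratio of any T. colubriformis member, at 61.4% identity over residues 243 to 387. Unigene 21607, over residues 263 to 363, had 1 in condition B and 132 in condition A (−6.06, interval −12.39 to −4.47). Overlapping stretches of this protein thus had ratios of opposite sign. Unigene 40783 is high-numbered and unigene 21607 low-numbered, sides where 85.0% of all unigenes were higher and 99.3% lower in condition B. The one Pol unigene of another named element, 6236, had 2 normalized counts in condition B and 44 in condition A (−3.91, interval −7.67 to −2.26).

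Related names in T. colubriformis lay on both sides as well, and their counts past 4-fold stand against a background of 39.7% higher and 41.6% lower, or 55.7% and 28.1% with equal totals. Of 42 LINE-1 unigenes, 7 were past 4-fold higher and 26 past 4-fold lower in condition B of 37, or 8 and 18 of 31 with equal totals. Their median was −3.70, or −2.01 with equal totals, and −4.29 and 4.76 by unigene number. Unigene 9973, a LINE-1 unigene, had 53 normalized counts in condition B and 28474 in condition A (−9.04). Of 17 other reverse transcriptase names, 4 were past 4-fold higher and 9 past 4-fold lower of 16, with a median of −2.22, and −3.92 and 2.18 by unigene number. With equal totals these counts were 5 and 5 of 14 and the median was −0.23. Of the 21 other mobile element names 18 were phage integrases, so the list mostly describes that name here. Its median was 0.00, or 1.87 with equal totals, and −7.55 and 4.61 by unigene number. Small RNA silencing names were 8 past 4-fold higher and 9 past 4-fold lower of 21, shares near the background. Their median was 1.22, or 3.03 with equal totals, and −6.73 and 3.29 by unigene number. There the RNA-dependent RNA polymerase unigene 62464, whose kind makes secondary small RNAs in C. elegans, had 70907 normalized counts in condition B and 10734 in condition A (2.72), and Piwi domain unigene 4041 had 2632 in condition B and 13800 in condition A (−2.39). Chromatin silencing names were 6 past 4-fold higher and 10 past 4-fold lower of 18, or 7 and 6 of 18 with equal totals. Their median was −2.21, or −0.26 with equal totals, and −4.30 and 2.17 by unigene number.

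The authors' deposited table for A. galli marked 39 members UP, 26 DOWN and 178 NEUTRAL. Its lowest p-value among members was 0.000213, that of R2 unigene 119593, and its lowest adjusted p-value was 0.589. For T. colubriformis, 23 members were marked UP, 30 DOWN and 16 NEUTRAL in the authors' deposited table, with a lowest p-value of 0.4 and a lowest adjusted p-value of 1. No member therefore passed an adjusted threshold in the authors' own comparison. The marks UP, DOWN and NEUTRAL were not counted over all unigenes, so they do not set the members apart from other unigenes. By the size rule, 22.7% of all A. galli unigenes were past 4-fold higher and 9.76% past 4-fold lower. In T. colubriformis these shares were 39.7% and 41.6%.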

How the data were processed

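The tables deposited by the authors hold, per the file headers, normalized counts (reads divided by 1 size factor) of conditions A and B, the ratio of B to A and its log2, an unadjusted and an adjusted p-value, and the best protein hit with percent identity and aligned residues. The submitters' processing notes name DESeq; its version, the aligner and the assembly are not stated there. All unigenes listed have reads in both conditions. One repeated header line among the A. galli values was left out.

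Whole reads were recovered from the step of the deposited normalized counts: 100% of values up to 200 were whole within 0.1 read. No count test was run on them, because 1 library per condition leaves no residual degrees of freedom. Log2 ratios, condition B over condition A, used a pseudocount of 1. The size rule was 4-fold in unigenes that reached 20 normalized counts in either condition. Medians and interquartile ranges used unigenes with a mean of at least 10. Counting intervals (95%, exact Clopper-Pearson, no pseudocount) used reads divided by 2, since most counts were even. Reads without molecular identifiers are not independent molecules. Unigene lengths are not in the files, so levels were not compared between unigenes.

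Named unigenes were, per worm, the 2 most abundant of each type and, with at least 100 normalized counts, the 5 largest and 5 smallest ratios by the interval bound nearest 1, and of each related list the 2 most abundant; a few others are marked. Members and lists were chosen with earlier results of these data known. The treated and control labels could not be tied to A and B, so the planned order could not be used. The script was tested on simulated data. Alternatives were scaling to equal totals or by the trimmed mean of M-values (30% and 5% trimmed), other minimums and pseudocounts, hits in relatives only, and counts summed per protein. Python 3.11.15, pandas 2.3.3, NumPy 2.4.6, SciPy 1.17.1 and matplotlib 3.10.9 were used.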

Additional observations from a re-analysis of the deposited data

How the results depend on the processing

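No paired analysis was possible because each condition had 1 library and no test was made. In A. galli the number of members at least 4-fold higher in condition B, 33, was 50 with equal totals, 12 with a minimum of 100 and 12 when the counting interval had to pass 4-fold; the number at least 4-fold lower, 23, was 12, 13 and 5 under these settings. The median log2 ratio, 0.03, was 0.41 with equal totals, 0.17 by the trimmed mean of M-values, −0.17 with a minimum mean of 50, −1.14 with hits in relatives only and −0.32 with counts summed per protein. The ratio of summed counts, −0.59, was −0.21 with equal totals, −0.46 by the trimmed mean of M-values, −1.04 with hits in relatives only and 0.0024, a reversal of sign, without unigene 9670. In T. colubriformis the median, −1.16, was 0.75 with equal totals, −0.17 by the trimmed mean of M-values, 0.37 with a minimum mean of 50, −0.32 with hits in relatives only and −1.94 with counts summed per protein. The ratio of summed counts, −2.50, was −0.51, −1.48, −2.05 without unigene 16535 and −2.54 with hits in relatives only. By unigene number, a choice added after the data were seen, the median was −0.92 (low) and 1.53 (high) in A. galli and −5.66 and 3.52 in T. colubriformis, and the ratio of summed counts was −0.99 and 1.16 in A. galli and −5.30 and 0.71 in T. colubriformis. The cause was not tested for any of these. Both counts for T. colubriformis, 22 higher and 27 lower, stayed within 1.5 times under all 6 settings tried. With equal totals they were 28 and 19, so their order turned. The shares of all unigenes turned too, from 39.7% and 41.6% to 55.7% and 28.1%. Depth limits the members with few reads in 1 condition, whose intervals are wide.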

Other observations

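Both worms had unigenes with hits in the same 8 proteins, although none of these proteins is from either worm or its host. They included a 618-residue and a 173-residue TNT 1-94 protein of T. patagoniensis. On the 173-residue protein, A. galli unigene 86334 matched residues 2 to 173 at 97.7% identity and had 385.6 normalized counts in condition B and 312.3 in condition A (a log2 ratio of 0.30), and unigene 140102 matched residues 109 to 173 at 98.5% identity, with 47.3 in condition B and 19.3 in condition A (1.25). Among the T. colubriformis unigenes on the 618-residue protein, number 25587 matched residues 128 to 175 at 91.7% identity, with 1 normalized count in condition B and 12 in condition A (−2.70, interval −9.30 to 0.05). The 98.5% was the highest identity of any A. galli member. Whether such transcripts come from the worms themselves was not tested.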
